A study of Rattus norvegicus with 20 samples.

Results

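The genes described here are 38 genes for enzymes that degrade amino acids or make urea, named by their known function and grouped by the amino acid they act on. All 38 were measured on the array, each through the probe set with the highest mean over the 20 arrays, among 14217 genes in all. They fall into 9 pathways: tryptophan and kynurenine, phenylalanine and tyrosine, histidine, lysine, branched-chain amino acids and propionate, transaminases with glutamate and glutamine, ornithine and proline, serine and glycine, and the urea cycle.

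The liver is the main site of amino acid breakdown. Transaminases move the amino groups of most amino acids onto glutamate or aspartate, other enzymes degrade the carbon skeletons to intermediates that feed glucose, ketone or energy metabolism, and the urea cycle converts the released nitrogen to urea for excretion. Many of these enzymes are lower outside the liver, and their transcripts are known to respond to feeding, glucagon and glucocorticoids.

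The study exposed male Harlan Sprague-Dawley rats to triphenyl phosphate, a flame retardant and plasticiser of the organophosphate ester class. All groups received corn oil by oral gavage, once daily for 4 days, and the liver was taken on day 5. There were 5 arrays of vehicle livers (corn oil alone, 0 mg/kg) and 3 arrays each at 55, 110, 220, 440 and 881 mg/kg, 20 arrays in all. For the group called 440 mg/kg here, as in the sample labels, the design text has 441 mg/kg. No source used here gives the rats' age. The treatment protocol speaks of groups of 3 rats, while 5 samples are labelled as vehicle, and the labels do not tie arrays to numbered animals. The p-values below therefore measure the spread between arrays, which may be technical.

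Expression is given as the deposited log2 value of a gene's probe set, in which a difference of 1 is a 2-fold difference. Levels are compared only within a gene, never between genes, because probe sets differ in brightness for reasons other than abundance. Changes against vehicle are log2 differences with their standard errors (SE) from limma, fitted over all 20 arrays and all 14217 genes. A gene was called when its Benjamini-Hochberg adjusted p over all genes was under 0.05, and "rose" and "fell" are used only of called genes. The array labelled 881 mg/kg replicate 2 stood apart. Its GAPDH control probe sets differed by 5.24 log2 units between the 3' and 5' ends, against 0.81 to 1.64 on the other 19 arrays, and its median correlation with the others was 0.980, against 0.990 to 0.994. Counts and calls at 881 mg/kg that change when it is left out are given both ways. Markers of hepatocytes averaged 14.72 to 14.81 on the 881 mg/kg arrays and 14.73 to 14.80 on the vehicle arrays, so the labelled tissue carried its defining transcripts at both ends of the dose range.

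The breakdown of ornithine, kynurenine, aspartate, serine and histidine carried the largest falls. Oat, Got1, Kynu, Sds and Hal were lower in the livers given 881 mg/kg than in the vehicle livers, with log2 changes between -1.99 and -0.67. The rises were smaller and lay in other steps: Shmt1 and Amt of one-carbon metabolism, the carboxylases Mccc1, Mccc2 and Pcca, the proline enzyme Aldh4a1, and the arginase gene Arg1, by between 0.24 and 0.42. In number, 7 of the 38 members rose and 11 fell at 881 mg/kg, where 12.7% of all genes tested were called up and 6.73% called down. Without 881 mg/kg replicate 2 the counts were 4 and 6, where 7.62% and 3.93% of all genes were called. The median change of the 38 members was -0.04, against 0.0007 over all genes.

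Fewer members were called at the lower doses. At 55 mg/kg 1 member rose and 0 fell by limma (8 members had an unadjusted p under 0.05), where 1.93% of all genes were called up and 0.879% down. At 110 mg/kg 1 rose and 0 fell (5 members had an unadjusted p under 0.05), where 2.36% and 1.24% of all genes were called up and down. At 220 mg/kg 1 rose and 3 fell, where 2.25% of all genes were called up and 1.18% down. At 440 mg/kg 3 rose and 4 fell, where 6.76% of all genes were called up and 4.28% down. The median change of the members was 0.04, -0.0023, 0.03 and 0.01 at 55, 110, 220 and 440 mg/kg, against 0.01, -0.0046, 0.0016 and -0.0016 over all genes. These 5 comparisons share the vehicle arrays and are not independent of each other. In all, 20 members (52.6%) were called at 1 dose or more and 18 at none, where 24.2% of all genes were called at 1 dose or more. Because the groups share 1 estimate of the spread, leaving out 881 mg/kg replicate 2 also added calls at lower doses with the same changes: Ftcd and Gpt at 55 mg/kg, Kynu at 110 mg/kg, Got1 at 220 mg/kg, and Got1, Glud1, Gpt, Amt and Mccc1 at 440 mg/kg.

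**Figure D1:**
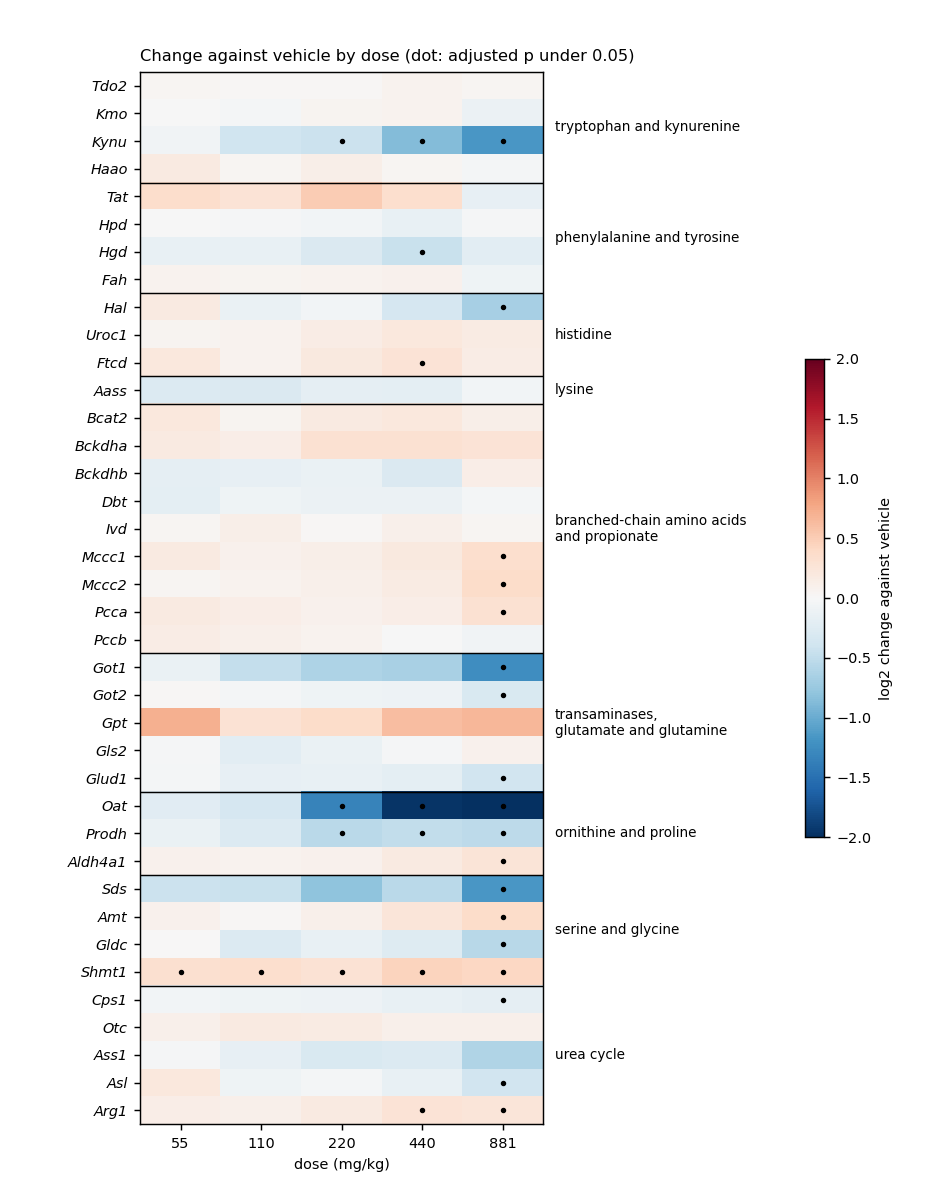
Log2 change against vehicle of each of the 38 members (rows, grouped by pathway) at each dose in mg/kg (columns), with blue for lower and red for higher than vehicle and a dot where limma's adjusted p was under 0.05. Oat and Kynu darken over the 3 highest doses, Shmt1 carries a dot at all 5 doses, and 18 rows carry none.

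Promoter windows are shown for the 3 members with the largest falls that have a window and for Shmt1, the member called at every dose, so that their start regions can be set side by side. The windows run 5' to 3' on the gene's strand, from 250 bases before to 50 after the start in RefSeq's GRCr8 build, and 31 of the 38 members have one. Capitals mark matches, on either strand, to the E-box CACGTG, the CCAAT box or the C/EBP motif TTGCNNAA. The cAMP response element TGACGTCA was also searched. The windows lie at chr1:196797705-196798004 (Oat, minus strand), chr1:252329822-252330121 (Got1, minus strand), chr3:48188036-48188335 (Kynu, plus strand) and chr10:45990292-45990591 (Shmt1, minus strand).
Oat: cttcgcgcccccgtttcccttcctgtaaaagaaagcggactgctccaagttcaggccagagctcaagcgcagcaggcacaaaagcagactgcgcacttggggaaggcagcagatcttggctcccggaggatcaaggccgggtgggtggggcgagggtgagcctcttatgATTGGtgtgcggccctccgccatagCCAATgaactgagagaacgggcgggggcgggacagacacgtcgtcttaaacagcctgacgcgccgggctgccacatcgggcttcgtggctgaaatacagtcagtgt
Got1: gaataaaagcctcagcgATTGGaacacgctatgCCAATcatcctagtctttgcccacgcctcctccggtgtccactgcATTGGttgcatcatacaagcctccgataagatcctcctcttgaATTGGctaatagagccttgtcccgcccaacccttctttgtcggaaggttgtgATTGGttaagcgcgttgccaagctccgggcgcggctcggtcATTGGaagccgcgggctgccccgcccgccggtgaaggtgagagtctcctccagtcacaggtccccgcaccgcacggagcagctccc
Kynu: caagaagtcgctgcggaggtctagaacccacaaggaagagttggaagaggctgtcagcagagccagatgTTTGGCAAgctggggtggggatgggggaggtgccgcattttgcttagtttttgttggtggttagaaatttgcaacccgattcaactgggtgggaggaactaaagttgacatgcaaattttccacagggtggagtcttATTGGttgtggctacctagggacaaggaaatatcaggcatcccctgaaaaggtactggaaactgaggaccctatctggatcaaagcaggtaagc
Shmt1: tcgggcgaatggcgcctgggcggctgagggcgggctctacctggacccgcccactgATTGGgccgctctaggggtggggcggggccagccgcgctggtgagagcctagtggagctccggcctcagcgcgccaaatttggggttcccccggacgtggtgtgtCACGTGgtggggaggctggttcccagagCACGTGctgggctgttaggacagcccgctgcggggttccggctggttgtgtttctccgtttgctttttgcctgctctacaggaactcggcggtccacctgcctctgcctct
The Got1 window held 6 CCAAT matches and the Oat window 2, each counted on both strands. The Kynu window held 1 CCAAT match and 1 C/EBP match, and the Shmt1 window held 2 E-boxes and 1 CCAAT match. A CCAAT match lay in 18 of the 31 member windows (58.1%), against 37.3% of the 11733 windows of all genes. The C/EBP motif lay in 4 member windows (12.9%, against 9.15% of all), and the E-box in 1 (3.23%, against 8.92%). The cAMP response element was in 0 of the 31, against 2.86% of all windows. CACGTG and TGACGTCA read the same on both strands and were counted once, and no match overlapped another in the 4 windows shown. A match describes letters in the window and does not mark a bound site.

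Ornithine and proline feed glutamate through a shared semialdehyde, and all 3 members of this pathway were called at 881 mg/kg. By limma 2 fell and 1 rose, or 2 and 0 without 881 mg/kg replicate 2. Among all genes 6.73% were called down and 12.7% up at that dose, or 3.93% and 7.62% without that array. Ornithine aminotransferase (Oat) moves the amino group of ornithine to 2-oxoglutarate and changed most of all members. Its level was 11.47, 10.63, 10.80, 10.89 and 10.65 on the vehicle arrays, 11.28, 10.84 and 9.87 at 55 mg/kg, and 10.55, 10.71 and 10.40 at 110 mg/kg. It was 9.22, 9.82 and 9.63 at 220 mg/kg, 8.87, 9.19 and 8.71 at 440 mg/kg, and 9.11, 8.76 and 8.83 at 881 mg/kg. Every array of the 3 highest doses lay below every vehicle array, whereas the 2 lowest doses overlapped vehicle. Oat fell at these doses in limma, with log2 changes of -1.33 ± 0.24 (SE) at 220 mg/kg (adjusted p = 0.00485), -1.97 ± 0.24 at 440 mg/kg (adjusted p = 3.29e-05) and -1.99 ± 0.24 at 881 mg/kg (adjusted p = 2.15e-05). The last of these is a level 3.96-fold lower than in vehicle livers. Without 881 mg/kg replicate 2 the change at that dose was -1.91.

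Proline dehydrogenase (Prodh) starts proline breakdown in mitochondria. Its level at 881 mg/kg was 9.59, 10.25 and 9.55, against 10.21, 10.21, 10.30, 10.54 and 10.37 on the vehicle arrays. Replicate 2, the array that stood apart, lay within the vehicle range, and the other two arrays lay below it. Prodh was 9.70, 9.70 and 9.94 at 220 mg/kg and 9.93, 9.79 and 9.77 at 440 mg/kg, every array below vehicle. It fell at the 3 doses, with limma changes of -0.54 ± 0.13 at 220 mg/kg (adjusted p = 0.021), -0.49 ± 0.13 at 440 mg/kg (adjusted p = 0.0162) and -0.53 ± 0.13 at 881 mg/kg (adjusted p = 0.00686). Without replicate 2 the change at 881 mg/kg was -0.75. The call at 220 mg/kg was lost without 220 mg/kg replicate 1 (adjusted p = 0.0844) or 2 (0.116) or vehicle replicate 4 (0.0573), and with the mean of the Prodh probe sets (0.0604). The call at 440 mg/kg was lost without 440 mg/kg replicate 2 (0.0688) or 3 (0.0707). At 881 mg/kg it was lost when only those arrays and vehicle were fitted (0.0501). The other Prodh probe set changed by -0.19 (0.265), but its vehicle mean was low, at 5.78 against 10.32 for the probe set used. The enzyme after the shared semialdehyde, Aldh4a1, was 12.68, 12.68 and 12.64 at 881 mg/kg, against 12.59, 12.39, 12.39, 12.41 and 12.30 in vehicle livers. It rose by 0.25 ± 0.075 (adjusted p = 0.0243), and without replicate 2 its adjusted p was 0.0721. The Aldh4a1 call was also lost without 881 mg/kg replicate 1 (0.0632) or vehicle replicate 5 (0.0546). Centring each array on its median (0.07255) and fitting only that dose and vehicle (0.0742) ended it too.

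**Figure D2:**
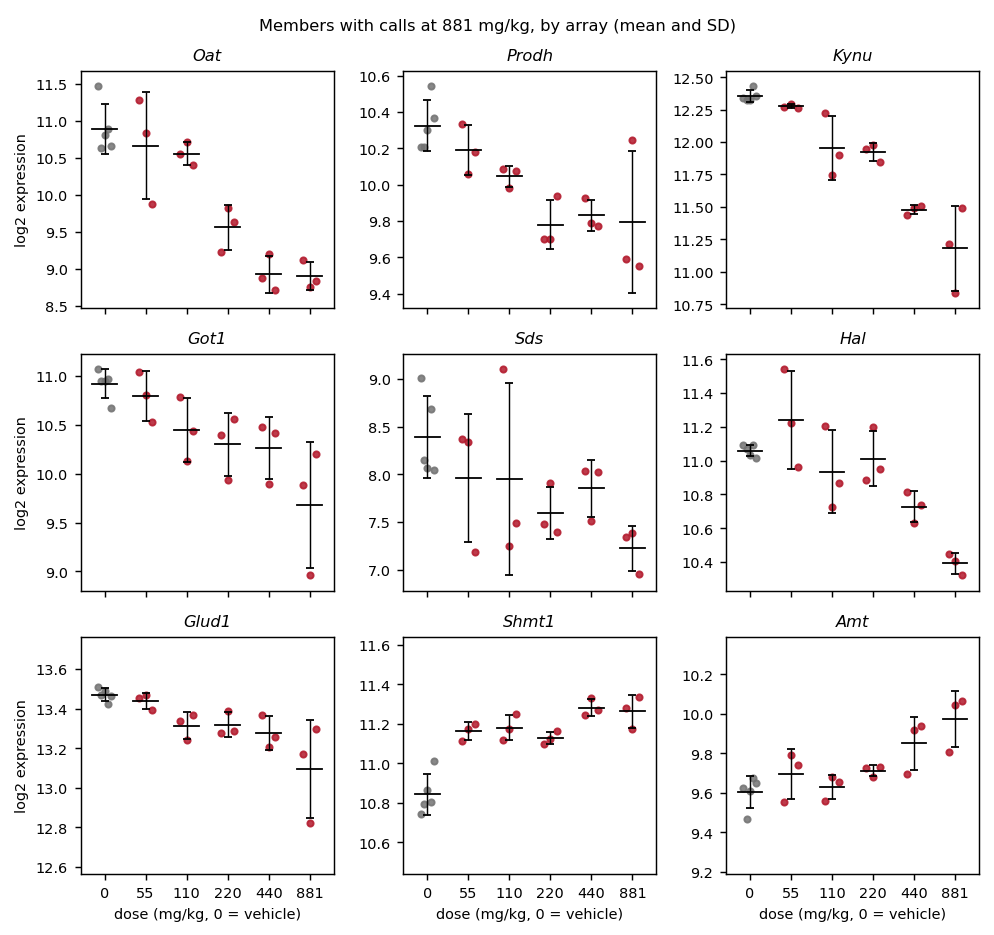
Log2 expression of 9 members called at 881 mg/kg, 1 point per array, with grey for vehicle (0) and red for dosed livers, and with bars for the mean and SD of each group; each panel has its own vertical range. Oat at 220, 440 and 881 mg/kg and Shmt1 at all doses do not overlap vehicle, and the low outlying points of Got1 and Glud1 and the high point of Prodh at 881 mg/kg are replicate 2.

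The transaminases and the glutamate enzymes carried 3 falls and 0 rises among 5 members at 881 mg/kg by limma (4 had an unadjusted p under 0.05). Their median change was -0.30, and 2 falls were left without replicate 2. Among all genes 12.7% were called up and 6.73% down at that dose, or 7.62% and 3.93% without replicate 2. Got1, the cytosolic aspartate aminotransferase, was 9.89, 8.96 and 10.20 at 881 mg/kg, against 11.07, 10.95, 10.95, 10.96 and 10.67 on the vehicle arrays. All 3 dosed arrays lay below vehicle, with replicate 2 the lowest. Got1 fell by 1.24 ± 0.22 (adjusted p = 0.000887), and fell by 0.87 without replicate 2 (adjusted p = 0.0068). Its changes at 55, 110, 220 and 440 mg/kg were -0.13, -0.47, -0.62 and -0.66, none of them called with all arrays. The last pair was called without 881 mg/kg replicate 2 (adjusted p = 0.0413 and 0.015).

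Got2, the mitochondrial partner of Got1, was 13.04, 12.60 and 13.08 at 881 mg/kg, against 13.19, 13.22, 13.24, 13.18 and 13.24 in vehicle livers. The dosed arrays all lay below vehicle, and replicate 2 lay far below the others. Got2 fell by 0.30 ± 0.086 (limma, adjusted p = 0.0182), a call lost without replicate 2, where the change was -0.15 (adjusted p = 0.155). The call was also lost when only that dose and vehicle were fitted (0.092). An actin 3' to 5' covariate (0.0521) and the mean of the Got2 probe sets (0.126) ended it too. The other Got2 probe set changed by -0.09 (0.747), with a low vehicle mean of 5.10. Glutamate dehydrogenase (Glud1), which releases ammonia from glutamate and sits where transamination meets the urea cycle, was 13.17, 12.82 and 13.30 at 881 mg/kg. On the vehicle arrays it was 13.51, 13.47, 13.49, 13.42 and 13.46, above every array at 881 mg/kg. Glud1 fell by 0.38 ± 0.084 (adjusted p = 0.00415), and fell by 0.24 without replicate 2 (adjusted p = 0.0331). Its other probe set changed by -0.18 ± 0.082 (adjusted p = 0.14) and was not called.

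Gpt, the alanine aminotransferase, was not called at any dose with all arrays, which were spread widely. It was 10.36, 11.96 and 10.30 at 881 mg/kg, against 10.11, 10.17, 9.86, 10.57 and 10.34 in vehicle livers, so that the difference of 0.66 ± 0.30 (limma, adjusted p = 0.126) came largely from replicate 2. Without it the difference was 0.12. Gpt was above every vehicle array at 55 mg/kg (11.14, 10.79 and 10.84) and at 440 mg/kg (10.70, 10.81 and 10.95). These differences of 0.71 and 0.61 were not called with all arrays (adjusted p = 0.234 and 0.204) and were called without 881 mg/kg replicate 2 (0.0487 and 0.0471). Liver glutaminase (Gls2) ranged from 11.84 to 12.33 at 881 mg/kg and from 11.79 to 12.03 in vehicle livers, with a difference of 0.09.

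In tryptophan breakdown a later step, kynureninase, fell, and the entry step was not called at any dose. Tryptophan dioxygenase (Tdo2), which opens the tryptophan ring and controls entry to the pathway, was 13.87, 13.55 and 13.65 at 881 mg/kg and 13.69, 13.51, 13.58, 13.73 and 13.76 on the vehicle arrays. The groups overlapped, and the difference was 0.04 ± 0.091 (limma, adjusted p = 0.803). Kynureninase (Kynu), which cleaves kynurenine and 3-hydroxykynurenine, was 12.34, 12.32, 12.33, 12.43 and 12.35 on the vehicle arrays, 12.27, 12.29 and 12.26 at 55 mg/kg, and 12.23, 11.74 and 11.90 at 110 mg/kg. It was 11.95, 11.98 and 11.85 at 220 mg/kg, 11.44, 11.49 and 11.51 at 440 mg/kg, and 11.21, 10.84 and 11.49 at 881 mg/kg. No dosed array reached the lowest vehicle array, and the group means were lower at each higher dose. Kynu fell, with limma changes of -0.43 ± 0.11 at 220 mg/kg (adjusted p = 0.04), -0.87 ± 0.11 at 440 mg/kg (adjusted p = 5.97e-05) and -1.17 ± 0.11 at 881 mg/kg (adjusted p = 2.12e-06). The last of these is a level 2.25-fold lower than in vehicle livers, and without 881 mg/kg replicate 2 the change was -1.0. The call at 220 mg/kg was lost when any of its 3 arrays was left out, with adjusted p between 0.0927 and 0.154. It was also lost without any single vehicle array (0.0608 to 0.092). Leaving out replicate 2 or 3 of 55 or 440 mg/kg ended it too (0.0508 to 0.052). Kmo, which hydroxylates kynurenine, and Haao, which acts after kynureninase, differed from vehicle by -0.12 and -0.04 at 881 mg/kg and were not called.

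Of the 4 members of serine and glycine breakdown 2 rose and 2 fell at 881 mg/kg by limma, and 2 rose and 0 fell without replicate 2. Among all genes 12.7% were called up and 6.73% down at that dose, or 7.62% and 3.93% without replicate 2. Serine dehydratase (Sds), which turns serine into pyruvate for glucose synthesis, was 7.34, 7.38 and 6.95 at 881 mg/kg, against 9.01, 8.15, 8.06, 8.69 and 8.05 in vehicle livers. The groups did not overlap, although the vehicle arrays alone spanned almost a full log2 unit. Sds fell by 1.17 ± 0.35 (limma, adjusted p = 0.0237). Without replicate 2 the change was -1.25 with an adjusted p of 0.0539, and the call was lost. The call was also lost without 881 mg/kg replicate 3 (adjusted p = 0.0801), vehicle replicate 1 (0.0575) or vehicle replicate 4 (0.0511). An actin 3' to 5' covariate ended the Sds call too (0.0624).

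Cytosolic serine hydroxymethyltransferase (Shmt1) interconverts serine and glycine and passes a carbon unit to folate. It was 10.74, 10.79, 10.87, 10.80 and 11.01 on the vehicle arrays, 11.11, 11.18 and 11.20 at 55 mg/kg, and 11.12, 11.18 and 11.25 at 110 mg/kg. It was 11.10, 11.12 and 11.16 at 220 mg/kg, 11.25, 11.33 and 11.27 at 440 mg/kg, and 11.28, 11.17 and 11.33 at 881 mg/kg. All 15 dosed arrays lay above all 5 vehicle arrays. By limma Shmt1 rose by 0.32, 0.34, 0.29, 0.44 and 0.42 at 55, 110, 220, 440 and 881 mg/kg, each ± 0.068, with adjusted p of 0.0151, 0.00763, 0.0234, 0.000371 and 0.000327. The calls at 440 and 881 mg/kg held without any single array. The call at 55 mg/kg was lost without 55 mg/kg replicate 2 or 3 (adjusted p = 0.0708 and 0.0784), that at 110 mg/kg without 110 mg/kg replicate 3 (0.0586), and that at 220 mg/kg without any of its 3 arrays or without vehicle replicate 2 or 4 (0.0519 to 0.102).

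Amt and Gldc encode proteins of the glycine cleavage system, which splits glycine in mitochondria. Amt was 9.81, 10.04 and 10.06 at 881 mg/kg, against 9.62, 9.47, 9.61, 9.67 and 9.65 in vehicle livers, with no overlap. It rose by 0.37 ± 0.081 (limma, adjusted p = 0.00395), and by 0.33 without replicate 2. Gldc was 9.45, 8.42 and 9.60 at 881 mg/kg, against 9.84, 9.50, 9.81, 9.59 and 9.85. Replicate 2 alone lay far below vehicle. The change of -0.56 ± 0.18 (adjusted p = 0.0329) was -0.19 without it and not called (adjusted p = 0.267). The other Gldc probe sets changed by -0.17 and 0.15 with neither called. Their vehicle means were 5.60 and 5.54, against 9.72 for the probe set used. Both means lay below the array medians (6.31 to 6.39), so these probe sets say little about the change.

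In histidine breakdown the members Hal, Uroc1 and Ftcd act in that order, and Amdhd1, another listed gene of the pathway, was not measured. Histidine ammonia-lyase (Hal) was 10.44, 10.41 and 10.32 at 881 mg/kg and 10.81, 10.63 and 10.74 at 440 mg/kg, against 11.09, 11.07, 11.03, 11.09 and 11.01 in vehicle livers. Neither of these dose groups overlapped vehicle, and the replicates lay close together. Hal fell by 0.67 ± 0.11 at 881 mg/kg (limma, adjusted p = 0.000547), with a change of -0.68 without replicate 2, and its change at 440 mg/kg was -0.33 (adjusted p = 0.0701). The last enzyme, Ftcd, which hands the formimino group to folate, was 13.31, 13.20 and 13.26 at 440 mg/kg, against 13.00, 12.92, 12.97, 13.00 and 13.05. It rose by 0.27 ± 0.059 at 440 mg/kg (adjusted p = 0.00615), and its difference at 881 mg/kg was 0.15 (adjusted p = 0.0808), with every array above vehicle at both doses. Uroc1, which acts after Hal, differed from vehicle by 0.16 at 881 mg/kg, where replicate 2 was highest at 12.93, and by -0.06 without it, and was called in neither case.

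None of the 4 members of phenylalanine and tyrosine breakdown was called at 881 mg/kg by limma (0 had an unadjusted p under 0.05), and their median change was -0.13. Tyrosine aminotransferase (Tat), the controlling step and a transcript known for its daily rhythm and its response to glucocorticoids, was 10.16, 8.92 and 10.03 at 881 mg/kg, against 10.01, 9.70, 10.30, 9.67 and 9.68 in vehicle livers. The groups overlapped, and Tat varied widely at 220 mg/kg too, at 10.30, 9.61 and 11.22. Its differences were 0.36, 0.28, 0.51, 0.33 and -0.17 from the lowest to the highest dose, each ± 0.35. Without 881 mg/kg replicate 2 the last of these was 0.22 and not called. Homogentisate dioxygenase (Hgd) was 10.94, 11.19 and 11.18 at 440 mg/kg, against 11.47, 11.46, 11.43, 11.65 and 11.71. It fell by 0.44 ± 0.11 there (adjusted p = 0.0105), and the call did not hold when 440 mg/kg replicate 1 was left out (0.0707). At 881 mg/kg Hgd was 11.27, 11.30 and 11.41, again below every vehicle array, but the difference of -0.21 was not called (adjusted p = 0.162). Hpd, which makes homogentisate, and Fah, the last enzyme, differed by -0.03 and -0.08 at 881 mg/kg. For lysine, Aass, which starts its breakdown, differed by -0.06 at 881 mg/kg and was not called at any dose.

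The 9 members of branched-chain amino acid and propionate breakdown carried 3 rises and 0 falls at 881 mg/kg by limma (4 had an unadjusted p under 0.05). Their median change was 0.13, and 1 rise was left without replicate 2. Among all genes 12.7% were called up and 6.73% down at that dose, or 7.62% and 3.93% without replicate 2. The 3 rises were of subunits of biotin-dependent carboxylases, and Mccc1 alone kept its call without replicate 2. Mccc1 and Mccc2 encode the subunits of methylcrotonyl-CoA carboxylase of leucine breakdown. Mccc1 was 9.98, 10.32 and 9.94 at 881 mg/kg, against 9.76, 9.67, 9.83, 9.77 and 9.66 in vehicle livers, and Mccc2 was 11.18, 11.56 and 11.22, against 10.91, 10.96, 11.02, 10.98 and 10.95. Every dosed array lay above vehicle for both, and replicate 2 was the highest in both. Mccc1 rose by 0.34 ± 0.079 (adjusted p = 0.00524), or 0.22 without replicate 2 (0.0468). Mccc2 rose by 0.36 ± 0.088 (adjusted p = 0.00754), or 0.24 without replicate 2, where it was not called (0.0692).

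Pcca, the alpha subunit of propionyl-CoA carboxylase, was 10.47, 10.80 and 10.59 at 881 mg/kg, against 10.31, 10.23, 10.28, 10.36 and 10.38. It rose by 0.31 ± 0.082 (limma, adjusted p = 0.0123) and was not called without replicate 2 (0.22, adjusted p = 0.0979). Its partner subunit Pccb was 10.65, 10.61 and 10.69, against 10.68, 10.76, 10.74, 10.69 and 10.76, overlapping at the edge, with a difference of -0.07 (adjusted p = 0.385). The difference between the subunits' changes was not tested.

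The branched-chain keto acid dehydrogenase complex controls the pathway. Bckdha, which encodes part of its decarboxylase, was 10.89, 11.06 and 11.17 at 881 mg/kg, against 10.53, 10.83, 10.89, 10.87 and 10.73 in vehicle livers, with the ranges touching. Its difference of 0.27 was not called (limma, adjusted p = 0.0754), and it was the 1 member called in the test for a trend over doses and at no single dose. The trend call was lost without vehicle replicate 1 (0.0552), with the actin covariate (0.0924), with dose in mg/kg (0.112) and with the mean of the probe sets (0.323). Without 881 mg/kg replicate 1 the difference at that dose was 0.35 and called (0.0455). Its partner Bckdhb, the core subunit Dbt, the leucine enzyme Ivd and the transaminase Bcat2 differed by 0.12, -0.04, 0.03 and 0.12 at 881 mg/kg, none of them called.

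Of the 5 urea cycle enzymes 2 fell and 1 rose at 881 mg/kg by limma, with a median change of -0.19. Without replicate 2, 0 fell and 1 rose, and the median was -0.16. Among all genes 12.7% were called up and 6.73% down at that dose, or 7.62% and 3.93% without replicate 2. Differences between the steps were not tested. Carbamoyl phosphate synthetase (Cps1), the mitochondrial entry step, was 13.91, 13.88 and 14.00 at 881 mg/kg, against 14.16, 14.13, 14.05, 14.13 and 14.11. The dosed arrays all lay below vehicle by a small margin. Cps1 fell by 0.19 ± 0.062 (adjusted p = 0.0426), a call lost in 12 of the other settings tried, and its adjusted p was 0.155 without replicate 2. The other probe set of Cps1 changed by -0.86 ± 0.31 (adjusted p = 0.0646) and was not called. Ornithine transcarbamylase (Otc) was 12.82, 11.94 and 12.78 at 881 mg/kg, against 12.79, 12.26, 12.39, 12.28 and 12.37, with a difference of 0.10 (adjusted p = 0.756). Without replicate 2 the difference was 0.38 and not called (0.146), and with the actin 3' to 5' difference as a covariate it was 0.37 and called (0.0168).

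Argininosuccinate synthetase (Ass1), which brings in the nitrogen of aspartate, was 13.06, 12.13 and 13.07 at 881 mg/kg, against 13.57, 13.31, 13.04, 13.39 and 13.46 in vehicle livers. Replicates 1 and 3 lay at the lower edge of the vehicle range and replicate 2 far below it. The difference of -0.60 ± 0.25 was not called (limma, adjusted p = 0.0947), and was -0.29 without replicate 2. Argininosuccinate lyase (Asl) was 11.24, 11.23 and 11.19, against 11.43, 11.46, 11.80, 11.76 and 11.59. These groups did not overlap, and the dosed arrays lay close together. Asl fell by 0.39 ± 0.12 (adjusted p = 0.0248). The call was lost without 881 mg/kg replicate 2 (0.0679) or 3 (0.0645) or vehicle replicate 3 (0.0561) or 4 (0.0578), although the change stayed between -0.54 and -0.34 in all the settings tried with that probe set or the mean of both. The other Asl probe set changed by -0.70 ± 0.15 (adjusted p = 0.00439).

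Arginase (Arg1), which releases urea and ornithine, was 14.04, 14.01 and 14.01 at 881 mg/kg and 14.06, 14.03 and 14.07 at 440 mg/kg, against 13.73, 13.64, 13.78, 13.89 and 13.86 on the vehicle arrays. No array of these dose groups overlapped vehicle. Arg1 rose by 0.27 ± 0.066 at 440 mg/kg (limma, adjusted p = 0.0123) and by 0.24 ± 0.066 at 881 mg/kg (adjusted p = 0.0158). The call at 440 mg/kg was lost without 440 mg/kg replicate 3 (0.0541). That at 881 mg/kg was lost with each array centred on its median (0.0573) and when only that dose and vehicle were fitted (0.0775). Oat, shown beside these genes, uses the ornithine that arginase makes.

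**Figure D3:**
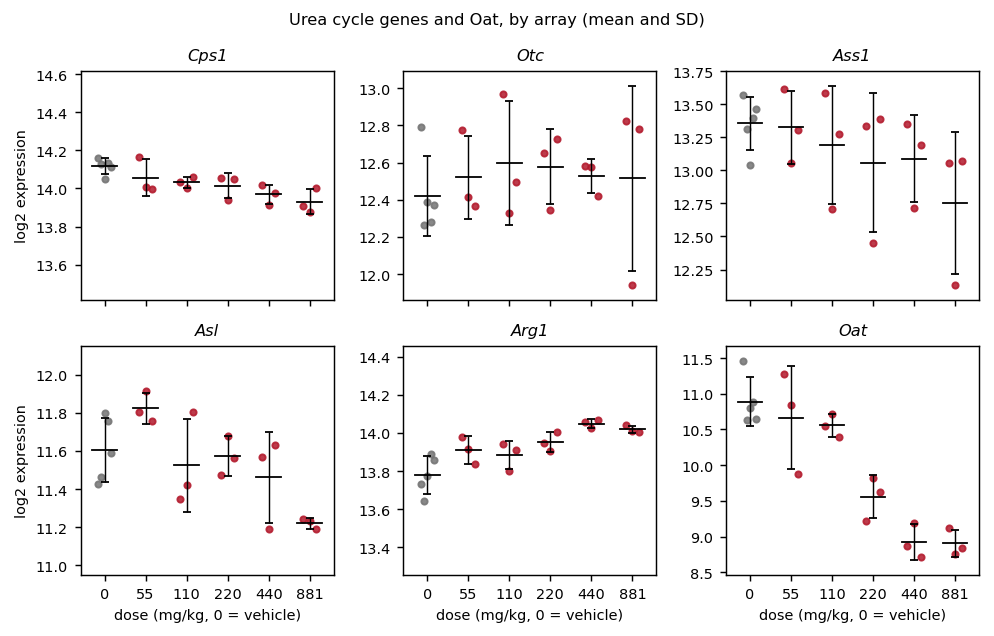
Log2 expression of the 5 urea cycle genes and Oat, 1 point per array, with grey for vehicle (0) and red for dosed livers, bars for the mean and SD of each group, and a vertical range of its own in each panel. Asl and Cps1 at 881 mg/kg lie below vehicle and Arg1 above it, and Ass1 and Otc at 881 mg/kg each have a low point, replicate 2, at 12.13 and 11.94.

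At 881 against 440 mg/kg, 0 members were called in either direction by limma (6 had an unadjusted p under 0.05), where 0.134% of all genes were called up and 0.127% down. The 6 were Bckdhb (0.41), Got1 (-0.58), Hal (-0.34), Kynu (-0.30), Got2 (-0.21) and Fah (-0.17), and the lowest adjusted p among the members was 0.224. Oat differed by -0.02 ± 0.27 between these doses. In the test for a trend over the dose steps 0 to 5, 9 members rose and 12 fell, where 12.9% of all genes were called up and 8.81% down. The steepest trends were those of Oat, at -0.45 ± 0.046 per step (adjusted p = 8.4e-07), Kynu, at -0.23 ± 0.021 (2.06e-07), and Got1, at -0.22 ± 0.037 (0.00022).

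**Figure D4:**
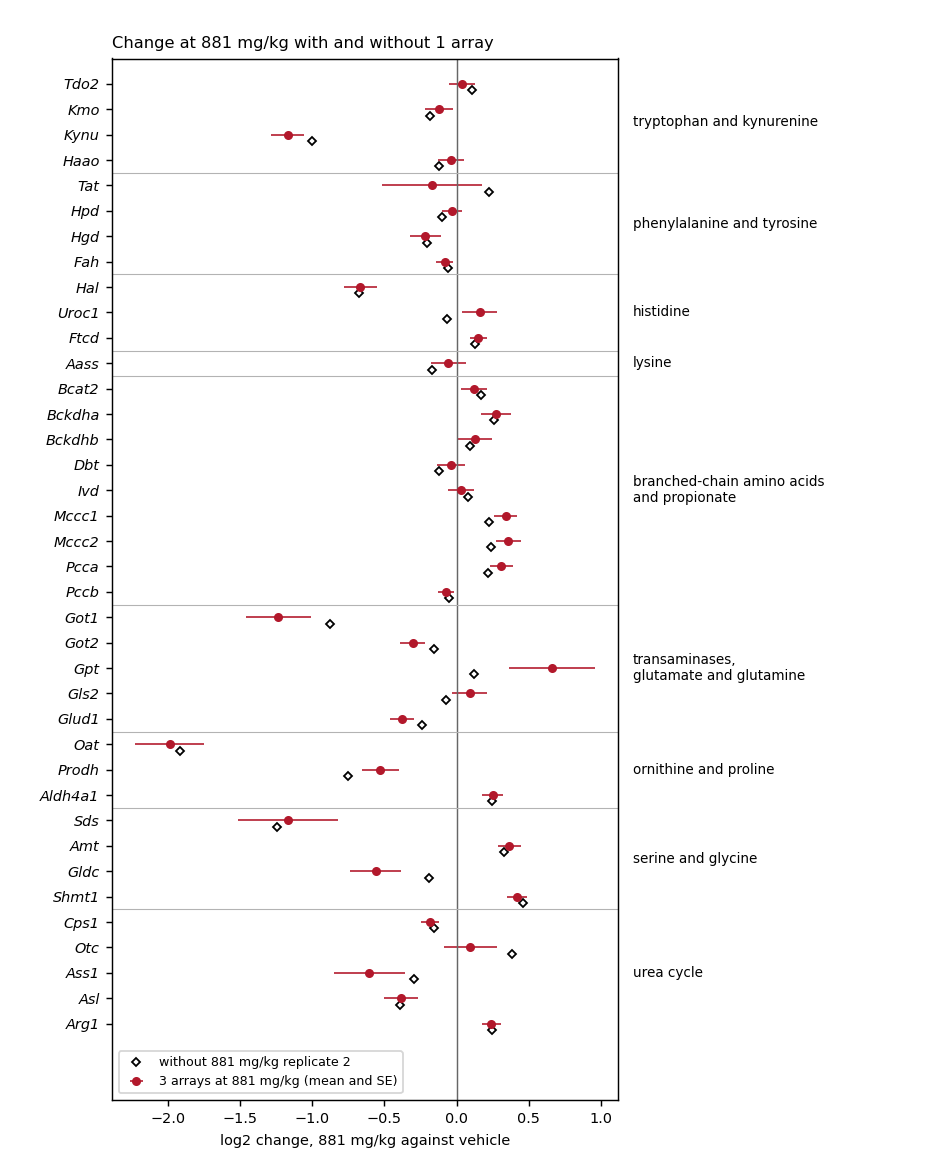
Log2 change at 881 mg/kg against vehicle of the 38 members, with red points and bars for all 3 arrays (change and SE) and open diamonds for the change without 881 mg/kg replicate 2. The diamonds of Oat, Hal and Shmt1 stay close to their points, and those of Gpt, Got1, Gldc, Ass1 and Tat lie apart from them.

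The other genes of the same pathways were taken from a list of 57, of which 48 were measured. At 881 mg/kg 12 of these rose and 6 fell, or 8 and 4 without replicate 2, with a median change of 0.01. At 440 mg/kg 8 rose and 1 fell. Over all genes, 12.7% were called up and 6.73% down at 881 mg/kg, or 7.62% and 3.93% without replicate 2. The shares at 440 mg/kg were 6.76% and 4.28%. In tryptophan breakdown Kyat1 and Afmid, which act on kynurenine and on formylkynurenine, rose by 0.82 ± 0.15 (limma, adjusted p = 0.000848) and 0.65 ± 0.14 (0.00251) at 881 mg/kg, 2 of the 5 measured, with 0 falls. Without replicate 2 both were still called, and Kyat3 was called down at -0.40 (0.0374). In serine and glycine breakdown 3 of 10 rose and 2 fell, or 0 and 1 without replicate 2. Agxt, which turns glyoxylate into glycine, fell by 0.84 ± 0.12 (adjusted p = 0.000136), its 3 arrays at 10.73, 10.46 and 10.78 against 11.22, 11.56, 11.72, 11.54 and 11.43. Gcat of threonine breakdown rose by 0.58 ± 0.18 (0.0292) and Glyctk fell by 0.34 ± 0.084 (0.00865). Without replicate 2 neither was called, at 0.40 (0.192) and -0.26 (0.0691), whereas Agxt was, at -0.74 (0.00159). The Gcat call was also lost without vehicle replicate 1 or 3 (0.0556 and 0.0542). With the mean of its probe sets Glyctk changed by -0.09 (0.422).

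Of the other branched-chain genes 5 of 14 rose and 1 fell at 881 mg/kg, where 12.7% of all genes were called up and 6.73% down. Without replicate 2 the counts were 4 and 0, where 7.62% and 3.93% of all genes were called. Hibch of valine breakdown rose by 0.59 ± 0.12 (limma, adjusted p = 0.00195), Bckdk, the kinase that inhibits the keto acid dehydrogenase, by 0.47 ± 0.11 (0.00609), and Acad8, also of valine breakdown, by 0.45 ± 0.085 (0.0013). Beside the urea cycle, 3 of 5 fell and 0 rose, or 2 and 0 without replicate 2. Slc25a15, the mitochondrial ornithine carrier, fell by 0.65 ± 0.11 (adjusted p = 0.000371), its arrays at 11.95, 12.25 and 12.13 against 12.50, 12.75, 12.86, 12.98 and 12.72. Nags, whose product activates Cps1, fell by 0.30 ± 0.10 (0.0438), and the aspartate-glutamate carrier Slc25a13 fell by 0.28 ± 0.075 (0.0127). The Nags call was lost in 14 of 27 other settings (0.05 to 0.165), among them without 881 mg/kg replicate 1 or 3, and the Slc25a13 call without replicate 2 (0.068). Dhtkd1 was the 1 of 5 lysine genes called (up by 0.22), and Hoga1 the 1 of 2 proline genes (up by 0.36, but -0.17 and not called with the mean of its probe sets). None of the 5 transaminase and glutamate genes (limma, 0 with an unadjusted p under 0.05) and none of the 2 tyrosine genes (0 likewise) was called at 881 mg/kg.

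Of 14 amino acid transporters 2 rose and 3 fell at 881 mg/kg, or 0 and 1 without replicate 2. Among all genes, 12.7% were called up and 6.73% down at that dose, or 7.62% and 3.93% without replicate 2. Slc7a5, a carrier of large neutral amino acids, rose by 0.64 ± 0.19 (limma, adjusted p = 0.0251), Slc25a12 rose by 0.48 ± 0.13 (0.014), and the mitochondrial glutamate carrier Slc25a22 fell by 0.64 ± 0.12 (0.000956). Without replicate 2 Slc25a22 alone of these was called (0.00547). The Slc7a5 call was lost without any of the 3 arrays at 881 mg/kg (0.0516 to 0.0676) and without vehicle replicate 1 or 2 (0.0504 and 0.0583). Of 15 measured regulators of amino acid breakdown 4 rose and 0 fell, or 2 and 0 without replicate 2. Klf15, a transcription factor known in mice to drive amino acid breakdown genes, was 9.60, 8.91, 8.82, 8.91 and 8.87 on the vehicle arrays, 9.86, 9.81 and 9.81 at 55 mg/kg, and 10.07, 10.44 and 9.58 at 881 mg/kg. It rose at all 5 doses, by between 0.81 and 1.10, each ± 0.19, with limma's adjusted p between 0.0013 and 0.0285. With the mean of its probe sets the changes at 55, 220 and 881 mg/kg were 0.40, 0.45 and 0.35 and not called (0.16, 0.0938 and 0.0857). The call at 55 mg/kg was also lost without any of its 3 arrays (0.0969 to 0.103) and without vehicle replicate 2, 3, 4 or 5 (0.0507 to 0.0673). Foxa2 rose by 0.69 ± 0.20 (0.0237) and the glucagon receptor gene Gcgr by 0.39 ± 0.13 (0.0375) at 881 mg/kg. Foxa2 was 0.35 and not called without 881 mg/kg replicate 3 (0.172), which was highest at 10.29, and its call was lost without vehicle replicate 4 (0.0519). Gcgr was 0.16 and not called without replicate 2 (0.322). The Gcgr call was lost in 8 of 27 other settings in all (0.053 to 0.322), among them without vehicle replicate 1, 2, 3 or 4. The glucocorticoid receptor gene Nr3c1 differed by -0.01 ± 0.11 (0.948).

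These are whole-liver samples, in which fewer cells of a type and less RNA per cell cannot be told apart. At 881 mg/kg 7 of 9 Kupffer cell and macrophage markers fell and 0 rose, their mean level lying at 8.70 to 9.39 on the dosed arrays against 9.48 to 9.99 on the vehicle arrays. Of 8 stellate cell markers 6 fell (6.94 to 7.53 against 7.57 to 8.0), and of 6 endothelial markers 3 fell (8.81 to 9.43 against 9.38 to 9.71). Without replicate 2 these falls numbered 4, 2 and 1. Of 5 blood cell markers 2 fell (6.65 to 7.54 against 7.62 to 8.12) and of 6 lymphocyte markers 2 fell (5.56 to 5.90 against 5.93 to 6.14), while of 4 bile duct markers 1 rose and of 5 hepatocyte markers 1 rose and 1 fell. Without replicate 2, 2 blood cell markers, 1 lymphocyte marker and 0 hepatocyte markers fell by limma. The shares of all genes at 881 mg/kg were 12.7% up and 6.73% down, or 7.62% and 3.93% without replicate 2. No marker list was at 0, and the part of these lists in the changes of the amino acid genes was not tested.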

How the data were processed

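Total RNA from liver was labelled with biotin and hybridised to Affymetrix rat expression arrays, 1 per sample. The deposited log2 values were made by the authors with RMA, per the submitters' processing notes. The sources used here give neither its version nor its settings, and the log2 scale was read from the values. RMA normalizes across arrays, so a change shared by most genes would be lost. Array medians lay between 6.31 and 6.39, and the number of arrays limits the precision.

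Of 31099 probe sets, 57 controls were left out. Of the remaining 31042, 20826 had 1 gene symbol in the platform annotation, 436 several and 9780 none. Gene IDs matched RefSeq's GRCr8 table for 20758, and 0 symbols changed. Each of 14217 genes kept the probe set with the highest mean. Groups came from the sample labels. limma 3.58.1 in R 4.3.3 fitted 6 dose groups over 20 arrays, and a second model took the dose step 0 to 5 as a numeric term, both two-sided. The fit was tested on simulated data. The median SE of a change at 881 mg/kg was 0.10. Python 3.11.15, pandas 2.3.3, NumPy 2.4.6 and matplotlib 3.10.9 made the summaries and plots.

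The members, gene lists and tests were chosen with earlier results of these data known. Values per array are given for members called at any dose and for the controlling steps Tdo2, Tat, Cps1, Bckdha and Glud1. From the other lists up to 3 genes per list called at 881 mg/kg are named, with Bckdk, Nags, Gcgr, Nr3c1 and Klf15 in any case. These are given by their changes, with values per array for Agxt, Slc25a15 and Klf15 at some doses. Values of Gpt, Otc and Ass1 by array were added after they were seen. Listed genes without a named probe set were not analysed here. Alternatives were the mean of a gene's probe sets, a filter on low signal (gene mean above 7.51), centring each array on its median, a trended robust prior, only the 2 groups compared, the actin 3' to 5' difference as a covariate, the replicate number as a block, dose in mg/kg for the trend, leaving out each array, and, added after seeing the data, the other probe sets of members.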

Additional observations from a re-analysis of the deposited data

Results flagged for a closer look

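Over the vehicle arrays of 58 named genes, 4 genes had 1 array far from the other 4, by Dixon's test (critical value 0.71 of the range). Chance gives about 1 in 20. Otc was 12.79 on vehicle replicate 1, with the nearest array at 12.39 and the gap 0.757 of the range. Klf15 was 9.60 on the same array (nearest 8.91, 0.878 of the range), as was Slc25a13 at 12.56 (nearest 12.42, 0.772). Bckdk was 9.75 on vehicle replicate 3 (nearest 9.41, 0.734). No cause was tested.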

How the results depend on the processing

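Of 2869 alternative values of single genes, 2633 kept their direction and their side of the threshold (25 of them a change of sign between values not called), 227 lost the call, 7 gained one and 2 reversed. The reversals were Hoga1 at 881 mg/kg, -0.17 with the mean of its probe sets (adjusted p = 0.412), and Gldc at 881 mg/kg, 0.15 by another probe set. That Gldc probe set was dim, with a vehicle mean of 5.54, and its change was not called. Of 18 members called at 881 mg/kg, 8 (Oat, Got1, Kynu, Hal, Glud1, Shmt1, Amt and Mccc1) kept the call under every setting except, for Glud1, its other probe set. Counts moved by over 1.5 times as follows, and the cause was not tested. The 11 falls at 881 mg/kg became 7 with only the 2 groups compared and 7 with the actin covariate. The 1 rise at 55 mg/kg became 2, and the 0 falls at 110 mg/kg became 1, with the actin covariate, the low signal filter or the trended robust prior. The 1 rise at 220 mg/kg became 0 with only the 2 groups and with median centring, and 2 with the low signal filter or the trended robust prior. With the replicate number as a block, the 3 falls at 220 mg/kg became 1 and the 3 rises at 440 mg/kg became 5. The block also ended the calls of Kynu and Prodh at 220 mg/kg (adjusted p = 0.12 and 0.122), Hgd and Prodh at 440 mg/kg (0.0672 and 0.0946), and Aldh4a1, Cps1 and Asl at 881 mg/kg (0.0873, 0.0938 and 0.0727). The labels do not say that a number pairs arrays. Deviations of same-numbered arrays had a median r of 0.14, with some pairs below 0 (-0.12 to 0.35), against -0.05 for other pairs. In all, 15 of 20 arrays matched best with their own number, a hint from the data and not the design.

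Leaving out 1 array at a time gave 0 to 3 rises at 55 mg/kg, 0 to 1 rises and 0 to 1 falls at 110 mg/kg, 0 to 1 rises and 1 to 4 falls at 220 mg/kg, 2 to 6 rises and 3 to 6 falls at 440 mg/kg, and 4 to 8 rises and 6 to 11 falls at 881 mg/kg. The trend counts ranged from 6 to 9 rises and 11 to 13 falls. The 4 and 6 at 881 mg/kg, and the 6 rises and 6 falls at 440 mg/kg, were without 881 mg/kg replicate 2, as were the 3 rises at 55 mg/kg and the 4 falls at 220 mg/kg. The 1 fall at 220 mg/kg was without 220 mg/kg replicate 1 or 2 or vehicle replicate 4. The 6 trend rises were without vehicle replicate 1. Median centring turned the split of all calls at 881 mg/kg from 65.4% to 52.6% upward, and left the members at 5 rises and 11 falls. Groups of 3 arrays and a median SE of 0.10 limit what could be called.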
